A study of Mus musculus with 6 samples.

Results

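Malat1, Neat1 and 8 host genes of small nucleolar RNAs (snoRNAs) were followed in splenic CD8+ T cells of mice, sampled on day 35. The hosts were Gas5, Snhg1, Snhg3, Snhg5, Snhg6, Snhg8, Snhg12 and Snhg15. The 10 genes were taken by name from a fixed list and made up 10 of the 28773 genes listed. All 10 were listed in every sample and had a mean of at least 1 FPKM, a fragment count divided by transcript length and library total, so all 10 were among the 12444 genes tested.

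Both groups came from tumour-bearing mice whose tumour had been treated by microwave ablation (MWA). The MWA+PBS group of 3 samples, replicates 1 to 3, then had the saline vehicle PBS, and the MWA+2DG group of 3 samples, replicates 4 to 6, had 2-deoxy-D-glucose (2DG), a glucose analogue that blocks glycolysis. The comparison asks how the splenic CD8+ T cells differed after a course of interfering with glycolysis that followed ablation. The paper's methods end the injections before the day of sampling. In mice of another experiment, the paper detected no drug in plasma some days after the last injection. The values below are therefore of cells taken after the course had ended, and not of cells shown to be under a block of glycolysis. Strain, sex, age and tumour line of these animals are not given in the labels. The paper's methods state that all mice were female. They list several strains and tumour lines without naming those of this RNA-seq. Neither an untreated group nor a group without ablation was analysed here. The labels do not say that the samples came from separate animals, so p-values measure the spread between these samples. No processing batch is named, so batch and group cannot be told apart.

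Long noncoding RNAs (lncRNAs) of this kind work in different places of the cell. Malat1 is an abundant RNA of nuclear speckles, the bodies where splicing factors gather. Neat1 is the scaffold of paraspeckles, bodies that form beside speckles and hold RNA-binding proteins and certain nuclear RNAs. Its gene gives a short RNA with a poly(A) tail and a long RNA without a genuine tail, and only the long one builds paraspeckles. The snoRNA hosts carry snoRNAs in their introns. After splicing, the snoRNAs guide chemical modification or cleavage of ribosomal RNA, while the spliced exons of many hosts are removed by nonsense-mediated decay (NMD). Many hosts start with a run of pyrimidines, the TOP motif of genes for the translation machinery, which ties translation of such RNAs to growth signals through mTOR. Gas5, the best known of them, was named for its accumulation in growth-arrested cells.

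The RNA was selected by oligo(dT) beads, so the 3′ end of a transcript bears on how well it is captured. The last 40 bases of the short and the long Neat1 transcript of GENCODE M21 (build GRCm38, minus strand) are shown for that reason. Neat1-202, of 3004 bases, ends at chr19:5842307-5842346 with a polyadenylation signal, and Neat1-201, of 20771 bases, ends at chr19:5824708-5824747 in an A-rich stretch. Capitals mark the AATAAA signal in the first and a run of 5 A in the second.
Neat1-202: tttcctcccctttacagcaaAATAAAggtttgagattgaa
Neat1-201: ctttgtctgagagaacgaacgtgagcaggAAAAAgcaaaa
The deposited values are per gene, so the short and the long RNA cannot be told apart in what follows.

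The starts of the hosts are shown because the TOP motif is defined by the first bases of the RNA. RefSeq (GRCm38.p6) promoters were matched by symbol for 8 of the 10 genes, with 9 entries since Gas5 had 2. Neat1 and Snhg6 had none. A run was counted where a C within 10 bases of the start site was followed by at least 4 further C or T letters on the strand of the gene. Such a run was found in 5 of the 9 entries, each of a different gene, and in 30.7% of all 32851 promoters. The other Gas5 entry had a longest run of 3. The 50-base windows of these 5 genes, from 30 bases before the start site, have the run in capitals.
Gas5 (chr1:161035136-161035185, plus): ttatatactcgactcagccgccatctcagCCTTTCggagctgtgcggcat
Snhg8 (chr3:123508317-123508366, minus): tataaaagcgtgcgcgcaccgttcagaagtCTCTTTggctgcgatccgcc
Snhg12 (chr4:132308648-132308697, plus): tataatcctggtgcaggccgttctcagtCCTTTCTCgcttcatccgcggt
Snhg3 (chr4:132353667-132353716, minus): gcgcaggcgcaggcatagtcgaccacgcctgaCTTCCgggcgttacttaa
Snhg5 (chr9:88522878-88522927, minus): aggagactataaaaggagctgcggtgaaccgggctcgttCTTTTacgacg
The run of Snhg12 was the longest, with 8 letters. TATAAA, the core of the TATA box, stood 15 to 40 bases before the start of Snhg8 and Snhg5 and of 1.99% of all promoters, read on the strand of the gene. TGACGTCA, the cyclic AMP response element, which reads the same on both strands, was found in the 300 bases around the starts of Gas5 and Snhg15 and in 1.79% of all promoters. These are matches of letters, not sites shown to be bound.

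The identity of the cells and the state of the libraries bear on every value below. Each sample had between 22414 and 23340 genes above 0. Mitochondrial transcripts took 21.4% to 22.8% of the FPKM total of the MWA+PBS samples, against 19.4% to 20.7% after 2DG. Cd8a, which encodes a chain of the CD8 co-receptor, was at 231.5 ± 6.96 FPKM (SD, n = 3) in MWA+PBS and 366.4 ± 9.48 in MWA+2DG. Of 20 T lineage genes, 18 were higher in MWA+2DG at an adjusted p under 0.05 and none was lower. The libraries also held transcripts of other cell types, and these differed between the groups. Of 14 neutrophil markers, 11 were called higher, with sums of 57.38 to 84.11 FPKM in MWA+PBS against 1586 to 1766 after 2DG. The 2 called lower, Mpo and Elane, which encode enzymes of early granules and were named after their values were seen, summed to 245.8 to 291.9 against 43.59 to 44.86. The 12 B cell markers summed to 17.02 to 18.38 against 81.63 to 88.12, with 10 called higher and 1 lower. Macrophage markers went the other way, at 1030 to 1100 against 334 to 372, with 14 of 15 tested called lower and 1 higher. Erythroid markers summed to 311 to 367 against 81.3 to 97.5, with 10 of 10 tested called lower. None of the markers in these lists was at 0 in all samples. Fewer cells of a type and less RNA per cell cannot be told apart in bulk RNA.

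Neat1 rose, and Malat1 did not pass the test on the deposited scale. Neat1 (ENSMUSG00000092274) stood at 5.49, 5.53 and 5.29 FPKM in the MWA+PBS samples and at 10.85, 11.53 and 10.18 in the MWA+2DG samples. The groups did not overlap, and the lowest MWA+2DG value was well above the highest MWA+PBS value. The means were 5.44 ± 0.129 and 10.85 ± 0.675 FPKM (SD, n = 3), a log2 fold change of 0.88 ± 0.064 (SE) with a 95% interval from 0.73 to 1.03 and an adjusted p of 5.13e-05 in limma. Fold changes are on the log2(FPKM + 1) scale, MWA+2DG minus MWA+PBS, and p-values are two-sided and Benjamini-Hochberg adjusted over all 12444 genes. Of these genes, 238 had a larger log2 fold change than Neat1. The call held in each alternative processing, with log2 fold changes from 0.49 to 0.98.

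Malat1 (ENSMUSG00000092341) was the most abundant of the 10, and the second by mean FPKM among the 528 tested genes of the lncRNA class in GENCODE. It measured 198.1, 173.0 and 201.6 FPKM in MWA+PBS and 160.9, 214.8 and 170.3 in MWA+2DG. The MWA+PBS values all lay inside the MWA+2DG range. The means were 190.9 ± 15.6 and 182.0 ± 28.8 FPKM (SD, n = 3). The log2 fold change was −0.076 ± 0.12 (SE) with an interval from −0.35 to 0.19 (limma, adjusted p = 0.633), and without MWA+2DG replicate 4 it was 0.0063. Under T lineage scaling it was −0.52 and called lower (limma, adjusted p = 0.00946).

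Neat1 and Malat1 are neighbours among the tested genes, though not among all annotated genes. The ratio of their levels within a sample does not depend on how libraries are scaled. Neat1 amounted to 2.77%, 3.20% and 2.62% of the Malat1 FPKM in the MWA+PBS samples and to 6.74%, 5.37% and 5.98% in the MWA+2DG samples. Each MWA+2DG ratio was above each MWA+PBS ratio. The log2 ratio averaged −5.13 ± 0.15 in the first group and −4.06 ± 0.16 in the second (SD, n = 3), a difference of 1.07. The two-sided exact permutation p was 0.1, the smallest that 3 samples against 3 allow.

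**Figure D1:**
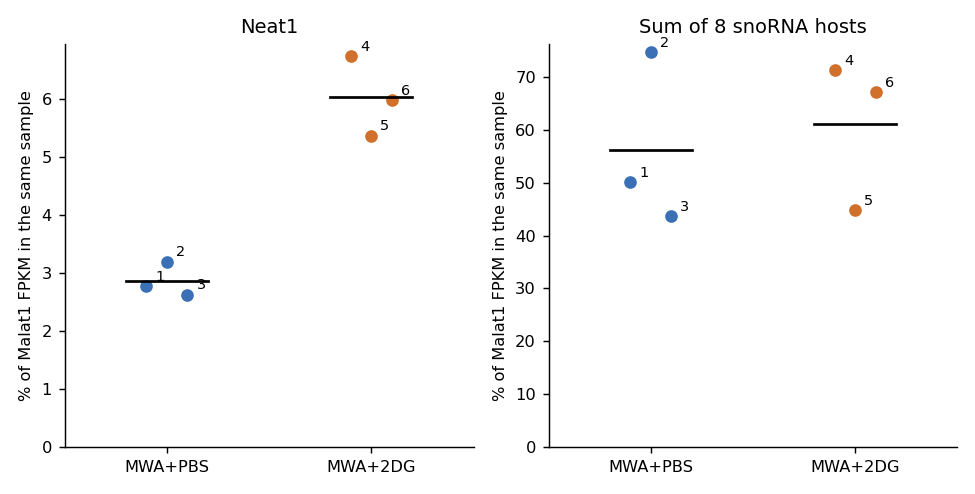
FPKM of Neat1 (left) and summed FPKM of the 8 snoRNA hosts (right) as a percentage of the Malat1 FPKM of the same sample, on axes that start at 0. Points are samples with their replicate numbers and lines are group means (n = 3). The MWA+PBS points for Neat1 lie between 2.62% and 3.20% and the MWA+2DG points between 5.37% and 6.74%, while the host sums overlap.

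Frmd8, the nearest tested gene beyond Neat1 though not the nearest annotated, had a log2 fold change of −0.016 and did not pass the test. Of the 3 short annotated genes that lie inside Neat1, 1 was among the genes listed, Gm27505. It was at 0.01, 0.04 and 0.02 FPKM in MWA+PBS and at 0.27, 0.34 and 0.17 in MWA+2DG. These levels are under the filter on low values and were not tested.

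Snhg6 was the 1 host of 8 called. This gene (ENSMUSG00000098234) carries 1 snoRNA, Snord87, a box C/D guide. Its levels were 4.09, 5.88 and 3.73 FPKM in MWA+PBS and 8.69, 6.52 and 9.13 in MWA+2DG. The groups did not overlap, although the highest MWA+PBS sample, replicate 2, and the lowest MWA+2DG sample, replicate 5, came near each other. The means were 4.57 ± 1.15 and 8.11 ± 1.40 FPKM (SD, n = 3), and the log2 fold change was 0.72 ± 0.17 (SE) with an interval from 0.33 to 1.10 (limma, adjusted p = 0.0115). A larger log2 fold change was measured for 430 of the 12444 genes. Leaving out single samples gave 0.61 to 0.88 and kept the call. Scaling to the T lineage genes ended it, at 0.34 (adjusted p = 0.0774).

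Snord87 is the one snoRNA inside any of the 8 hosts that passed the filter on low values, and its sequence is shown because it lies in the host that changed. It spans 87 bases on the minus strand at chr1:9942463-9942549 (GENCODE M21, GRCm38). Capitals mark the box C letters TGATGA from base 11 and the box D letters CTGA from base 75, which define its class.
Snord87: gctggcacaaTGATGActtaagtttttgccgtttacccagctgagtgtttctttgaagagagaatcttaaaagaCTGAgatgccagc
Snord87 was at 1.59, 2.89 and 1.33 FPKM in MWA+PBS and at 1.57, 3.02 and 2.87 in MWA+2DG. The groups overlapped, and its log2 fold change of 0.26 ± 0.24 (SE) had an adjusted p of 0.422 in limma. GENCODE M21 places 30 snoRNA genes inside the hosts, among them 10 in Gas5, 8 in Snhg1 and 5 in Snhg12. All 30 were listed, and the other 29 had a mean under 1 FPKM. A snoRNA has no poly(A) tail and is mostly shorter than the fragments sequenced here, so these values are no measure of the mature snoRNAs.

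Gas5 and Snhg1 were the most abundant hosts. Gas5 was at 38.38, 47.94 and 33.03 FPKM in MWA+PBS and at 46.99, 40.12 and 46.87 in MWA+2DG. The MWA+2DG values all fell inside the MWA+PBS range. The log2 fold change was 0.18 ± 0.13 (SE), with an interval from −0.13 to 0.48 and an adjusted p of 0.325 in limma. Without MWA+PBS replicate 2 it was 0.32 with an adjusted p of 0.0408, without MWA+PBS replicate 3 it was 0.053, and under T lineage scaling −0.26. Snhg1, whose introns carry Snord22 among others, measured 26.14, 33.05 and 22.34 FPKM in MWA+PBS and 24.06, 20.46 and 25.53 in MWA+2DG. Its groups overlapped too, and the log2 fold change was −0.20 ± 0.14 (limma, interval −0.53 to 0.13, adjusted p = 0.3), against −0.63 and a lower call under T lineage scaling (limma, adjusted p = 0.00262). Without MWA+PBS replicate 2 the log2 fold change of Snhg1 was −0.053, and without MWA+PBS replicate 3 it was −0.33.

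Snhg8, the host of Snora24, had the lowest log2 fold change of the 10. It was at 9.89, 15.97 and 9.48 FPKM in MWA+PBS and at 10.56, 6.73 and 8.10 in MWA+2DG. A single sample, MWA+PBS replicate 2, stood far above the others. The log2 fold change of −0.42 ± 0.21 (SE) had an interval from −0.91 to 0.074 and did not pass the test (limma, adjusted p = 0.156), while T lineage scaling gave −0.82 and a lower call (limma, adjusted p = 0.00642). Without MWA+PBS replicate 2 the log2 fold change of Snhg8 was −0.19, and without MWA+2DG replicate 4 it was −0.57.

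Snhg12, which carries Snora16a, Snora44, Snora61 and Snord99, was at 8.90, 11.23 and 8.26 FPKM in MWA+PBS and at 10.09, 9.79 and 9.62 in MWA+2DG. Its MWA+2DG samples lay close together and inside the MWA+PBS range, and the log2 fold change was 0.06 ± 0.10 (SE, limma, adjusted p = 0.674). Under T lineage scaling Snhg12 had −0.34 and was called lower (limma, adjusted p = 0.0138). For Snhg5, the host of Snord50a and Snord50b, the values were 4.97, 7.57 and 4.03 FPKM against 6.11, 5.36 and 6.69. The log2 fold change of 0.14 ± 0.18 had an adjusted p of 0.567 in limma, and without MWA+PBS replicate 2 it was 0.36 with an adjusted p of 0.0448, without replicate 3 of that group −0.025, and under T lineage scaling −0.23. Snhg15, the host of Snora9, measured 5.44, 5.89 and 5.72 FPKM against 6.55, 5.78 and 6.79. Only MWA+2DG replicate 5 fell among the MWA+PBS values, and the log2 fold change was 0.14 ± 0.074 (limma, interval −0.032 to 0.31, adjusted p = 0.171), but −0.24 and called lower under T lineage scaling (limma, adjusted p = 0.0169). Snhg3, the host of the Snora73 RNAs that act in early ribosomal RNA cleavage, was the least abundant at 1.48, 1.74 and 1.5 FPKM against 1.82, 1.56 and 1.68. Its log2 fold change was 0.063 ± 0.091 (limma, adjusted p = 0.618), and −0.21 under T lineage scaling.

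In all, 2 of the 10 genes were called higher and 0 lower, taking adjusted p-values under 0.05 as calls. Of the genes tested in the whole table, 39.4% were called, 22.3% higher and 17.1% lower. The 2 of 10 called higher are near the share of all genes called higher, and the difference from the share called in either direction was not tested. At the study's thresholds, an unadjusted P under 0.05 and an absolute log2 fold change above 0.25, the same number of 2 was called, against 38.2% of all genes. The groups did not overlap in 2 of the 10 genes and in 52.1% of all genes. The median log2 fold change was 0.10 over the 10 and 0.046 over all genes. Without MWA+PBS replicate 2, which stood high in the hosts, 4 were called higher by limma: Neat1, Snhg6, Gas5 and Snhg5. The share of all genes called higher in that fit was 24%, with 17.5% called lower. Scaling to the T lineage genes moved the median of all genes by −0.38 and called 1 higher, Neat1, and 5 lower: Malat1, Snhg1, Snhg8, Snhg12 and Snhg15. Of all genes, 4.84% were called higher and 61.8% lower in that fit. Measured from the median of all genes under that scaling, the log2 fold changes were 0.82 for Neat1, 0.67 for Snhg6, −0.19 for Malat1, −0.30 for Snhg1, −0.49 for Snhg8, −0.012 for Snhg12 and 0.088 for Snhg15.

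**Figure D2:**
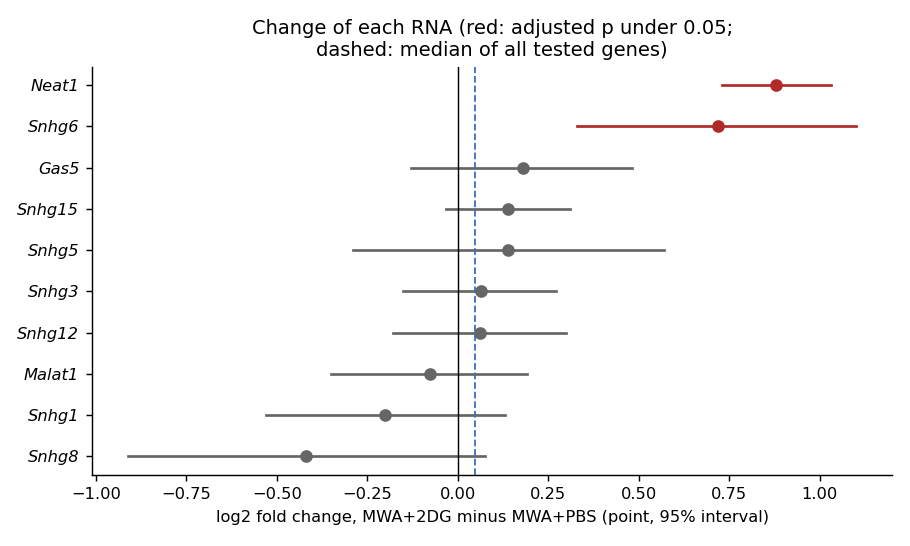
Log2 fold change of each of the 10 RNAs between MWA+2DG and MWA+PBS, with 95% intervals from limma (n = 3 per group). Red marks an adjusted p under 0.05 and the dashed line is the median of all tested genes, 0.046. Neat1 (0.88) and Snhg6 (0.72) lie clear of 0, and the other intervals include 0.

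FPKM is scaled by length, but the length in use is uncertain where transcripts differ, as from 711 to 20771 bases for Neat1. Capture by oligo(dT) may also differ between genes. The order below is therefore one of deposited FPKM and not of molecules. By the mean over the 6 samples the order was Malat1, Gas5, Snhg1, Snhg8, Snhg12, Neat1, Snhg6, Snhg15, Snhg5 and Snhg3. Malat1 exceeded Gas5 in all 6 samples, and Snhg5 exceeded Snhg3 in all 6. Snhg1 and Snhg8 were also apart in both groups. Gas5 was above Snhg1 in every sample, but the ranges touched in MWA+PBS. Neat1 changed its place between the groups, since each of its values was below each Snhg12 value in MWA+PBS and above each in MWA+2DG. It overlapped with Snhg6 in MWA+PBS and not in MWA+2DG. Snhg8 and Snhg12, Snhg6 and Snhg15, and Snhg15 and Snhg5 overlapped in both groups.

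**Figure D3:**
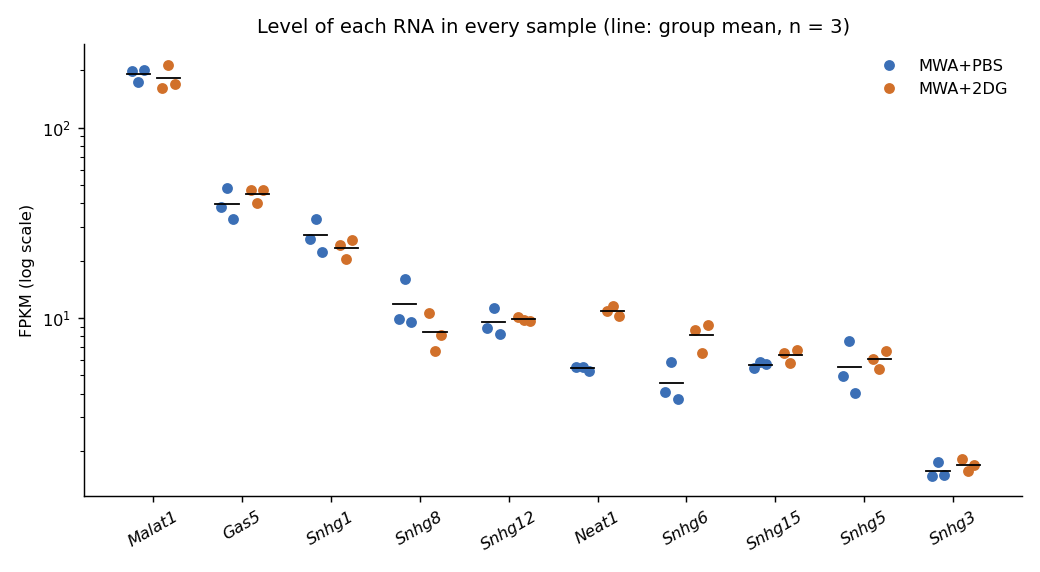
FPKM of each RNA in every sample on a log axis, ordered by the mean over the 6 samples. Blue points are MWA+PBS, orange points MWA+2DG, and lines are group means (n = 3). The groups are separate for Neat1 and Snhg6 and overlap for the other 8.

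The hosts shared a pattern between the samples of each group. MWA+PBS replicate 2 had the highest value of its group in 8 of 8 hosts. MWA+2DG replicate 5 had the lowest of its group in 7 of 8, the exception being Snhg12. Malat1 went the other way, with its lowest MWA+PBS value in replicate 2 and its highest MWA+2DG value in replicate 5. As deviations from the group mean of log2(FPKM + 1), the median of the 8 hosts was 0.28 in MWA+PBS replicate 2 and −0.15 in MWA+2DG replicate 5, against −0.14 and 0.25 for Malat1. Neat1 deviated by at most 0.083 in any sample.

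Over all tested genes, 43.8% were highest of their group in MWA+PBS replicate 2 and 41.5% lowest in MWA+2DG replicate 5. The length of the transcript moved with this pattern. The 3038 tested genes whose longest transcript is shorter than 1500 bases had median deviations of 0.054 and −0.041 in these samples, and the 2216 genes longer than 5000 bases had −0.015 and 0.027. Malat1 (6983 bases) and the long Neat1 belong to the longer class, while the longest transcripts of the hosts range from 581 bases in Snhg3 to 2728 in Snhg1. The part of length in the pattern was not tested.

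**Figure D4:**
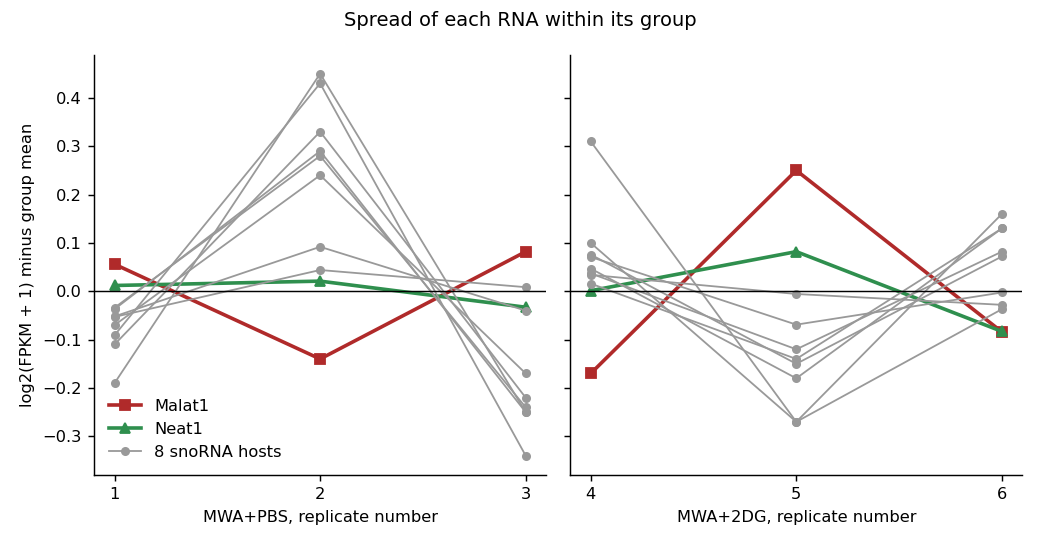
Deviation of each RNA from the mean of its own group on the log2(FPKM + 1) scale in MWA+PBS (left) and MWA+2DG (right). Lines join the values of 1 RNA and the replicate numbers carry no order. The hosts peak in MWA+PBS replicate 2, where Malat1 is at −0.14, and dip in MWA+2DG replicate 5, where Malat1 is at 0.25.

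Summed over the 8 hosts, FPKM came to 99.29, 129.3 and 88.09 in MWA+PBS and 114.9, 96.32 and 114.4 in MWA+2DG. The group means, 105.5 ± 21.3 and 108.5 ± 10.6 (SD, n = 3), differed by less than the spread. Relative to Malat1 the sum was 50.1%, 74.7% and 43.7% in MWA+PBS and 71.4%, 44.8% and 67.2% in MWA+2DG. The log2 ratio differed by 0.13 (two-sided exact permutation p = 0.9), and that of Gas5 to Malat1 by 0.26 (two-sided exact permutation p = 0.5), with values from 0.09 without MWA+PBS replicate 3 to 0.47 without MWA+PBS replicate 2. The number of relations tested this way was 3 with that of Neat1 to Malat1, and none can pass a threshold of 0.05 in this design, so adjustment over them changes no call.

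The genes with the most similar pattern over the 6 samples were found by the root mean square difference of centred log2(FPKM + 1). Nearest to Malat1 were Nceh1 at 0.033, Apbb1ip at 0.045 and the lncRNA Norad (2900097C17Rik) at 0.058. Nearest to Neat1 were Vamp1, a vesicle fusion protein, at 0.033, Cd33, a sialic acid receptor of myeloid cells, at 0.050 and AW011738 at 0.051. For Gas5 they were Wdr74 at 0.026, Cetn3 at 0.031 and Gpn3 at 0.036. Wdr74, a ribosome assembly factor, is the gene next to Snhg1 on the same strand.

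Other genes lie beside or across the hosts. Slc3a2, the heavy chain of several amino acid transporters and the neighbour of Snhg1 on the opposite strand, fell from 28.1 ± 1.39 to 19.4 ± 0.746 FPKM (SD, n = 3), or −0.51 on the log2 scale (limma, adjusted p = 0.000444). Wdr74, on the other side of Snhg1, had 0.19 and did not pass. Phactr4, beside Snhg3, fell with −0.27 (limma, adjusted p = 0.0201). Gm4617, the nearest tested gene on one side of Snhg8 though not the nearest annotated, fell with −0.60 (limma, adjusted p = 0.00222). Sgk3 and Cops5, the tested neighbours of Snhg6, had −0.18 and 0.022 and did not pass. The tested neighbours of Snhg5, Snhg12 and Snhg15 did not pass either.

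Zbtb37 overlaps Gas5 on the opposite strand. It was at 2.52, 2.72 and 2.85 FPKM in MWA+PBS and at 4.16, 4.56 and 3.95 in MWA+2DG, and rose by 0.50 on the log2 scale (limma, adjusted p = 0.00208), or by 0.15 under T lineage scaling, where it was not called. Rcc1, the exchange factor of the Ran GTPase, overlaps Snhg3 on the same strand and fell with −0.43 (limma, adjusted p = 0.00216). The libraries were strand-marked, but no source used here says whether the quantification used the strand, and reads of Gas5 and Zbtb37 may not be separate. Those of Snhg3 and Rcc1 share a strand, and the values of both are uncertain for that reason.

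Of the wider list of snoRNA hosts, 5 of 13 passed the filter. Of these, 2 rose and 0 fell. Snhg20 went from 1.92 ± 0.285 to 3.35 ± 0.2996 FPKM (SD, n = 3; log2 fold change 0.58, limma adjusted p = 0.00339), and Snhg17 from 7.07 ± 0.2001 to 9.01 ± 0.131 (log2 fold change 0.31, limma adjusted p = 0.00357). Neither was called under T lineage scaling, where Snhg20 had 0.26 (limma, adjusted p = 0.0514) and Snhg17 −0.085, and the list had 0 called higher and 1 lower. Snhg16 with 0.19, Zfas1 with −0.15 and Epb41l4aos with −0.023 did not pass. Of 10 other named lncRNAs tested, 5 rose and 1 fell, and under T lineage scaling 1 was called higher and 3 lower. Mir142hg, the host of a miRNA of blood cells and the 1 that stayed called higher, had the largest rise, from 4.79 ± 0.0833 to 10.86 ± 1.10 FPKM (log2 fold change 1.03, limma adjusted p = 6.36e-05). Xist, which silences an X chromosome, rose from 91.2 ± 2.52 to 114.4 ± 9.68 (0.32, limma adjusted p = 0.0088; −0.12 under T lineage scaling), and Firre, an X-linked nuclear RNA, fell from 1.5 ± 0.175 to 0.790 ± 0.0608 (−0.48, limma adjusted p = 0.00772). By GENCODE class, 37.1% of the 528 lncRNA genes tested were called higher and 9.09% lower, with a median log2 fold change of 0.21. This class goes by gene biotype and includes Cct6a, a gene better known for its protein, called lower at −0.59. The 10138 protein coding genes had 22.6% and 17.6%, with a median of 0.043. Under T lineage scaling the lncRNA genes had 17.2% higher and 27.1% lower calls, and the protein coding genes 3.97% and 66.7%.

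The proteins of paraspeckles moved in both directions. Of 16 genes, 7 rose and 2 fell, with a median log2 fold change of 0.14, and under T lineage scaling 0 were called higher and 11 lower with a median of −0.29. That scaling called 4.84% of all genes higher and 61.8% lower, so counts of lower calls under it are to be read against this share. Tardbp, an RNA-binding protein, rose with 0.45 (limma, adjusted p = 0.0104). Sfpq, which binds Neat1 and is the most abundant of the list, fell from 97.1 ± 0.629 to 76.2 ± 3.29 FPKM (SD, n = 3; −0.35, limma adjusted p = 0.00159). Rbm14 fell with −0.50 (limma, adjusted p = 0.00294). Nono, the partner of Sfpq, had 0.005 and did not pass.

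Of 28 nuclear speckle and splicing genes, 11 rose and 2 fell, with a median of 0.19. Under T lineage scaling 0 were called higher and 17 lower. On the scale as deposited the splicing factor Srsf5 rose from 123.8 ± 21.8 to 175.7 ± 9.61 FPKM (0.51, limma adjusted p = 0.0113) and Rbm25 had 0.46 (limma, adjusted p = 0.000845). The splicing regulators Tra2b, with −0.40, and Ptbp1, with −0.24, fell (limma, adjusted p = 0.00227 and 0.0136). The helicase Ddx5, the most abundant of the list, rose with 0.32 (limma, adjusted p = 0.0341) and had −0.12 under T lineage scaling. Of 14 genes of nuclear RNA decay, 5 rose and 0 fell, and under T lineage scaling 0 were called higher and 10 lower. The largest rises were those of Zfc3h1, which hands polyadenylated nuclear RNA to the exosome, with 0.56, and of Zcchc7 with 0.42 (limma, adjusted p = 0.0026 and 0.00256).

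Among the genes that act on snoRNAs and hosts, none of 4 box C/D proteins, 5 box H/ACA proteins and 9 assembly factors passed, beside 39.4% of all genes, with medians of −0.015, −0.061 and 0.0022, while under T lineage scaling 4, 5 and 7 of them were called lower. Nop56, Nhp2 and Nolc1, the most abundant of each list, had 0.065, 0.019 and −0.13. Among 16 NMD factors, 1 rose, the exonuclease Xrn1 with 0.26 (limma, adjusted p = 0.0234), which had −0.14 under T lineage scaling, where 13 of the list were called lower. Smg1, the kinase of the pathway and its most abundant gene, had 0.073 and did not pass. A list of 21 genes chosen as having a TOP start, most but not all for translation, was also followed. Their starts were not checked here. Of these 21 genes, 0 rose and 1 fell, Impdh2 with −0.39 (limma, adjusted p = 0.00114), and the elongation factor Eef1a1 had −0.061. T lineage scaling called 20 of these 21 lower, with a median of −0.51 or −0.18 from that of all genes. Of 12 regulators of mTOR and TOP translation, 1 rose and 2 fell. Rictor, a subunit of mTOR complex 2, rose with 0.23 (limma, adjusted p = 0.0245) and had −0.19 under T lineage scaling, where 12 of 12 were called lower. Eif4ebp1, which holds back cap-dependent translation, fell with −0.58, and Larp4 with −0.21 (limma, adjusted p = 0.0112 and 0.0229).

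**Figure D5:**
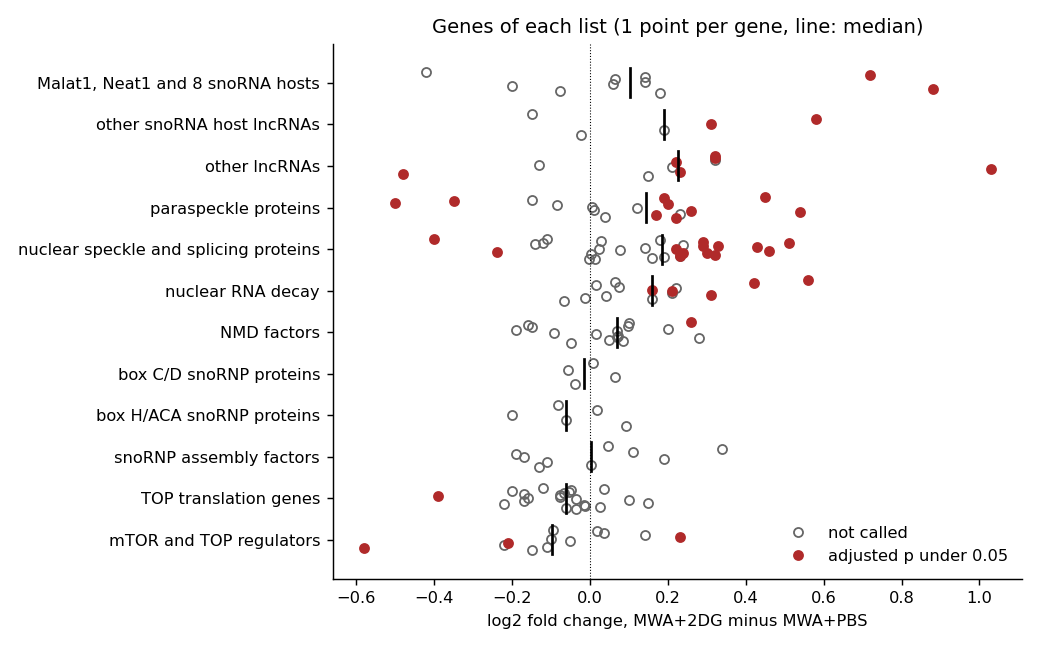
Log2 fold change of every tested gene in 12 lists, 1 point per gene, with the median of each list as a line. Filled points passed an adjusted p under 0.05 in limma. Neat1, Snhg6 and Mir142hg stand to the right, while the lists of snoRNP proteins and assembly factors hold no filled point.

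Stress genes and other cell types differed between the same samples as Neat1 and Snhg6. Of 13 heat shock genes tested, 12 fell, and together they summed to 2390 to 2528 FPKM with PBS and 1015 to 1071 with 2DG. The deepest falls were those of Hspa1b and Hspa1a, with −5.64 and −5.34, near-identical copies whose reads may be split between them (limma, adjusted p = 1.72e-08 and 2.69e-08). Of 19 immediate early genes, 13 fell, Jun and Fosb the most with −3.18 and −3.06, and 3 rose, among them Dusp2 and Egr3 with 0.70 and 0.43 (limma, adjusted p = 3.56e-07, 8.54e-07, 0.00459 and 0.0202). Under T lineage scaling 0 of the 19 were called higher and 16 lower, with Dusp2 at 0.27 and Egr3 at 0.043. S100a9, a defining gene of neutrophils, went from 23.2 ± 6 to 595.8 ± 46.8 FPKM, unlike Mpo and Elane, Cd79a of B cells from 1.22 ± 0.261 to 12.5 ± 1.48, and C1qa of macrophages from 130.1 ± 7.43 to 20.3 ± 1.84 (SD, n = 3). The methods describe sorting of the splenocytes with a kit for mouse CD8+ T cells, a step meant to remove other cell types. The part of these cells and of the stress genes in the rise of Neat1 and Snhg6 was not tested.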

How the data were processed

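RNA from 6 samples of splenic CD8+ T cells was measured by poly(A)-selected, strand-marked RNA-seq. The authors deposited 1 FPKM value per gene and sample. Their processing notes name cutadapt 1.9, UMI-tools, HISAT2 2.0.4, StringTie 1.3.4d and the build mm9, and the methods name fastp and ballgown. No source used here gives the annotation. FPKM is relative to the library total and holds no counts, and no step that would give whole reads was found, so the depth is unknown. Symbols came from GENCODE M21.

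The test was limma 3.58.1 (R 4.3.3, lmFit, eBayes with trend) on log2(FPKM + 1) for genes with a mean of at least 1 FPKM, without covariates. Ratios were tested by exact permutation (scipy 1.17.1). The fit was tested on simulated data. Named genes were the 10, up to 2 largest rises and falls and the most abundant gene per list, defining markers, tested neighbours and the 3 most similar genes for Malat1, Neat1 and Gas5; Gm27505, Wdr74, Snhg16, Zfas1, Epb41l4aos and Nono were added after their values were seen. The members and lists were chosen with earlier results of these data known. A few genes that the rule named are not reported here. Snhg4, Snhg7, Cdr1os and Klra8 were not matched. Alternatives were a pseudocount of 0.1, other filters and scalings, removal of a length trend, other limma settings and leaving out each sample.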

Additional observations from a re-analysis of the deposited data

How the results depend on the processing

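Neat1 stayed called under all alternatives, and Snhg6 under all but the T lineage scaling. That scaling equalises T lineage genes that were higher in MWA+2DG and so lowers all fold changes: log2 fold changes became −0.52 (adjusted p = 0.00946 in limma, as below) for Malat1, −0.26 for Gas5, −0.63 for Snhg1, −0.21 for Snhg3, −0.23 for Snhg5, 0.34 for Snhg6, −0.82 for Snhg8, −0.34 for Snhg12 and −0.24 for Snhg15. It called 6 of the 10 genes by either rule (1 higher, 5 lower) and 8291 of all genes (602 higher, 7689 lower), against 4907 (2773 higher, 2134 lower). A mean of at least 5 FPKM left 7313 genes and 2951 calls, and there Snhg3 had no value. The split over all genes was 2328 higher and 2460 lower with median ratio scaling, 2569 and 2639 without a filter, and 2329 and 2624 with the length trend removed. The latter gave −0.0036 for Snhg12, and arrayWeights 0.19 for Snhg15 (adjusted p = 0.0359). The cause of the last 2 was not tested.

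Leaving out each sample gave ranges of −0.20 to 0.0063 for Malat1, 0.053 to 0.32 for Gas5, −0.33 to −0.053 for Snhg1, 0.027 to 0.11 for Snhg3, −0.025 to 0.36 for Snhg5, −0.57 to −0.19 for Snhg8, −0.023 to 0.18 for Snhg12, 0.099 to 0.20 for Snhg15 and −0.031 to 0.36 for the log2 ratio of hosts to Malat1. The count called ran from 2 to 4 by the adjusted p and from 2 to 4 by the study's rule. Without MWA+PBS replicate 2, Gas5 (0.32) and Snhg5 (0.36) were also called. Without MWA+PBS replicate 3, Snhg1 (−0.33) and Snhg8 (−0.54) passed the study's rule, Snhg5 was −0.025, Snhg12 −0.023 and the ratio −0.031. Without MWA+2DG replicate 4, Malat1 was 0.0063 and Snhg8 (−0.57) passed the study's rule, as it did with the length trend removed (−0.47), for 3 called each time. The genes that crossed 0 had intervals that included 0 in the fit reported.

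No paired analysis was possible because the 2 groups share no replicate number in the labels. Depth is unknown, so whether low levels such as that of Snhg3 are set by counting error cannot be given.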
